A study of Mus musculus with 5 samples.

Results

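The circadian clock genes examined here were 10 genes chosen by name: the transcriptional activators Arntl, Clock and Npas2, the period genes Per1, Per2 and Per3, the cryptochromes Cry1 and Cry2, and the D-box activators Dbp and Tef. All 10 were found among the 22071 RefSeq gene symbols of the deposited table, 20340 of them coding, and they were represented by 14 transcripts. The transcripts of a gene were summed. Levels are given in FPKM, the fragments assigned to a transcript per kilobase of its length and scaled to the size of the library.

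Brain regions of adult C57BL/6 mice, male and wild type, had been microdissected and snap-frozen, and their poly(A) RNA was sequenced. The subventricular zone (SVZ, 2 biological replicates), the olfactory bulb (OB, 1 sample) and the dentate gyrus (DG, 1 sample) are the neurogenic regions, and the striatum (STR, 1 sample) served as the non-neurogenic control. None of the groups carried a genetic change or a treatment. How many animals contributed to a sample, and at what time of day the tissue was taken, the sources used here do not say.

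The mammalian clock is a daily feedback loop of transcription. ARNTL (also called BMAL1) pairs with CLOCK or with its paralog NPAS2 and activates genes through E-box sequences, among them the Per and Cry genes, whose proteins return to the nucleus and inhibit the pair. DBP and TEF are PAR bZIP transcription factors that bind D-box sequences and carry the rhythm to further genes. The loop runs in most cells of the body, and the suprachiasmatic nucleus of the hypothalamus sets its phase. Because the levels of most of these transcripts change over the day, a level taken at 1 time describes that time only.

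The libraries formed 2 sets that cut across the regions. RefSeq transcripts shorter than 200 bases reached 1 FPKM 24 times in SVZ sample 1, 19 in OB and 14 in DG, and 153 times in SVZ sample 2 and 161 in STR. The difference between the 2 SVZ samples followed the GC content of coding genes (Spearman rho = 0.73 across 13149 genes, which are not independent replicates). Differences between regions are therefore given within SVZ sample 1, OB and DG, and within SVZ sample 2 and STR. Each region then has 1 sample, so these differences have no replicate check. They are not free of the relation with GC content either. Over coding genes, Spearman rho was -0.28 for SVZ sample 1 minus OB and 0.24 for OB minus DG. It was 0.01 for SVZ sample 1 minus DG and -0.05 for SVZ sample 2 minus STR. The DG library listed 16725 transcripts at 0, against 9564 to 10807 in the others. Coding genes at 1 FPKM or more numbered 12275 to 13119 per library. The depth is unknown, since FPKM values carry no counts, so no counting error can be given.

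The region labels were checked against marker genes. Markers were summed over 6 genes each. Dentate granule neuron genes stood at 563 FPKM in DG and 6.35 to 127 elsewhere. Calb1 alone was at 124 FPKM in STR, 95.7 in SVZ sample 2 and 72.9 in SVZ sample 1, most of those sums. Olfactory bulb neuron genes stood at 1333.8 in OB and 6.38 to 18.7 elsewhere. Ependymal genes stood at 279 and 118 in the SVZ samples and 3.19 to 16.2 elsewhere. Striatal projection neuron genes were at 2815.1 FPKM in STR, 281 in OB and 55.1 in DG, and they were at 3937.3 and 2968.1 in the SVZ samples. Both SVZ samples thus carried striatal markers at levels of the order of the striatum library. Penk made up 230 of the 281 FPKM in OB. By gene, SVZ sample 2 was below STR for 4 of the 6 (Drd1a, Drd2, Ppp1r1b and Adora2a) and above it for Tac1 and Penk. Of 6 suprachiasmatic and hypothalamic markers, Six6 was listed at 0 in every library, and their sum was 4.08 to 16.6 FPKM. In bulk tissue, fewer cells of a type and less RNA per cell cannot be told apart.

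The promoters of the members were searched for the sequences through which the loop acts. RefSeq promoter windows (GRCm38.p6, 250 bases before a transcription start to 50 after it) were found for 9 of the 10 genes, all but Per2, in 14 windows. The letters searched, on both strands and in the 250 bases before the start, were the E-box CACGTG, the E-prime box CACGTT, the D-box TTATGTAA, the ROR element (the half-site AGGTCA with fixed AT-rich bases before it) and the cAMP response element TGACGTCA. An E-box or E-prime box lay in a window of Per1, Cry1, Cry2 or Tef, that is in 4 of the 9 genes, and no window of the 9 held the cAMP response element. Of all 32851 windows of the same length, 6.02% held the E-box, 3.85% the E-prime box and 9.57% either of them. The D-box was held by 0.819%, the ROR element by 0.177% and the cAMP response element by 1.55%. These shares are per window, while 4 of 9 counts genes, some of which have more than 1 window. Npas2, Clock, Dbp and Arntl had no match of any of these motifs in the 250 bases before a start. Bases beyond the windows were not searched, so matches elsewhere in or near a gene are not covered. No pair of matches in the members shared a base. A match describes the letters and is not evidence of binding.

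Per1 and Tef each start at more than 1 promoter, and the split between their starts differed among the libraries, so these stretches are shown with the motif letters in capitals. The first start of Per1 had an E-box 166 bases before it, the second start, 1203 bases downstream, had no match, and the second start of Tef had an E-box 138 bases before it. The stretches lie at chr11:69098699-69098948, chr11:69099902-69100151 and chr15:81811164-81811413, all on the plus strand, and they are the bases just before each RefSeq start. GENCODE M21 puts no exon in the stretches of the second starts, and the first base of a Per1 exon at the end of the other.
Per1, first start: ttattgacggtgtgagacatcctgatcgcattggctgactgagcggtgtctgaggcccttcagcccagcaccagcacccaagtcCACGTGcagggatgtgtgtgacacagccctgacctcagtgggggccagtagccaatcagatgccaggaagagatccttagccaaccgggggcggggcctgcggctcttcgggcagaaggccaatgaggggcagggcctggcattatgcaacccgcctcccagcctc
Per1, second start: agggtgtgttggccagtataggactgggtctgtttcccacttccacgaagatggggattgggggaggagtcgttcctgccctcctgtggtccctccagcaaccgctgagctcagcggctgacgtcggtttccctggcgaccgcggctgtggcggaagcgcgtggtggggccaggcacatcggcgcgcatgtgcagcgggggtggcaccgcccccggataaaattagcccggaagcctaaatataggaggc
Tef, second start: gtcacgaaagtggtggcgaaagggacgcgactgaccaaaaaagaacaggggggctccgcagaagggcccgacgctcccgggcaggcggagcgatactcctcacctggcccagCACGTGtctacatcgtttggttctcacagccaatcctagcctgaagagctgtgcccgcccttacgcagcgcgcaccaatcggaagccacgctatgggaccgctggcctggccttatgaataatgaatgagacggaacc

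Shorter stretches show the matches of the other genes. The first start of Tef also had an E-box 127 bases before the RefSeq start, but GENCODE M21 begins the transcript 252 bases earlier, so that this E-box lies inside its first exon, and an exon of the antisense gene Gm17597 covers it too. Cry1 had an E-box at 60 and an E-prime box at 79 bases before its start. Cry2 had an E-prime box at 166 bases. Per3 had a pair of D-boxes at 205 and 158 bases, and 0.018% of all windows held at least 2. Arntl had no match before either start but a ROR element 28 bases after its second start, in its first exon, a match that 0.22% of the whole 300-base windows held. The shares for at least 2 D-boxes and for whole windows were not among the planned searches. ROR elements are bound by the ROR activators and the REV-ERB repressors, which drive Arntl. The stretches lie at chr15:81802534-81802563 (plus strand), chr10:85185087-85185153, chr2:92434208-92434255 and chr4:151044796-151044890 (minus strand, written in the direction of the gene) and chr7:113207528-113207557 (plus strand).
Tef, first start: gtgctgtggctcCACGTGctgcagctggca
Cry1: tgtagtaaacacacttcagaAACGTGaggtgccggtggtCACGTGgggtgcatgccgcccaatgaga
Cry2: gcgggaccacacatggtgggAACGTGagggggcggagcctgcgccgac
Per3: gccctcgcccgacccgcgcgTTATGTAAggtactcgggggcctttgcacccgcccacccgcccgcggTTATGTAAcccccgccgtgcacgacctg
Arntl, second start: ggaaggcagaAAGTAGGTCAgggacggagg

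All 10 genes were present in every library, from 5.45 FPKM for Npas2 in DG to 164 for Tef in SVZ sample 1. Each was therefore above the minimum of 1 FPKM used for differences. Tef was the highest of the 10 in all 5 libraries and lay at the 95.2 to 98.1 percentile of coding genes. Dbp, Cry2 and Per1 followed it in every library, in changing order, and the other 6 genes stood below them. The lowest of the 10 was Clock in SVZ sample 1 (16.3 FPKM), Npas2 in OB (11.5) and DG (5.45), and Per3 in SVZ sample 2 (9.83) and STR (8.30).

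**Figure D1:**
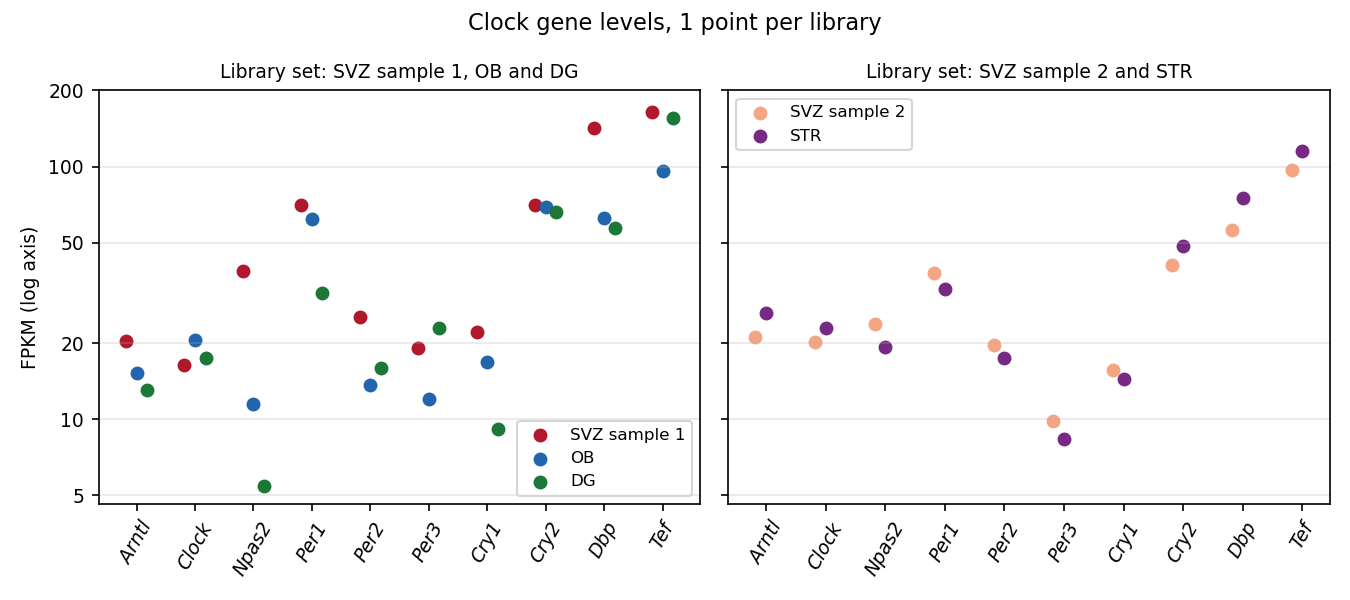
FPKM (log axis) of the 10 clock genes, 1 point per library, with SVZ sample 1, OB and DG on the left and SVZ sample 2 and STR on the right. Npas2 spans 38.5 to 5.45 FPKM in the left panel and 23.8 to 19.3 in the right one, while Cry2 stays between 66.0 and 70.6 in the left panel.

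Npas2, the activator that can take the place of CLOCK and is known for its expression in the forebrain, had the widest range. It was at 38.5 FPKM in SVZ sample 1, 11.5 in OB and 5.45 in DG, a 7.06-fold range, and at 23.8 in SVZ sample 2 and 19.3 in STR. The order was thus SVZ sample 1, OB, DG, and in the other set SVZ sample 2 lay near STR. On the scale of log2(FPKM + 1), on which 1 unit is a 2-fold difference and differences of low genes are understated, its level in SVZ sample 1 was 1.66 above OB and 2.61 above DG. Only 3.63% and 1.81% of coding genes had differences as high. OB was 0.95 above DG and SVZ sample 2 was 0.29 above STR. The gene lies at chromosome 1, 39251117 to 39420085 on mm9, the build of the deposited coordinates.

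Marker genes of striatal projection neurons were, like Npas2, higher in SVZ sample 1 than in OB and DG. All 6 were at least 1 unit higher than in OB (median 5.15) and than in DG (median 5.79). Between SVZ sample 2 and STR, 0 of 6 differed by 1 unit (median -0.35), a pair in which Npas2 was 0.29 higher. Between OB and DG, 2 of 6 were at least 1 unit higher in OB (median 0.41). Oligodendrocyte markers were also at least 1 unit higher in SVZ sample 1, 4 of 6 against OB and 6 of 6 against DG, with sums of 2922.0 FPKM in SVZ sample 1, 1355.7 in OB and 771 in DG and 2453.0 in SVZ sample 2 and 2791.8 in STR. Ependymal markers were at least 1 unit higher in SVZ sample 1 for 6 of 6 against OB (median 4.16) and 6 of 6 against DG (3.93), and in SVZ sample 2 for 6 of 6 against STR (3.92). Neuroblast and cycling cell markers were higher by that much for 4 of 6 against OB, with 2 lower (median 2.18), for 6 of 6 against DG (2.63) and for 6 of 6 against STR (3.35). The part of any of these cells in the Npas2 level was not tested. Among 10118 coding genes with a mean of 5 FPKM or more, the pair most like Npas2 in SVZ sample 1 minus OB, SVZ sample 1 minus DG and SVZ sample 2 minus STR were the potassium channel gene Kcnq5 (Euclidean distance 0.29 log2 units) and the GABA receptor subunit gene Gabrg3 (0.293).

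Clock, the main partner of ARNTL, varied least after Cry2 in the set of SVZ sample 1, OB and DG. It was at 16.3 FPKM in SVZ sample 1, 20.5 in OB and 17.5 in DG, and at 20.2 in SVZ sample 2 and 23.0 in STR. SVZ sample 1 was the lowest of all 5. Its differences were -0.32 (SVZ sample 1 minus OB), -0.10 (minus DG), 0.22 (OB minus DG) and -0.18 (SVZ sample 2 minus STR). The gene lies at chromosome 5, 76641202 to 76733573.

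Set side by side per length, the 2 paralogs changed places. Npas2 was 2.36 times the level of Clock in SVZ sample 1 and 1.18 times in SVZ sample 2, and below it in STR (0.839), OB (0.559) and DG (0.313). Npas2 made up 70.3% of the sum of both in SVZ sample 1, 35.8% in OB and 23.8% in DG, and 54.1% and 45.6% in SVZ sample 2 and STR. Within each set the ratio was highest in the SVZ sample. Npas2 was the higher of the pair in the SVZ samples only, a statement that crosses the library sets. The genes differ in GC content, 52.3% for Npas2 and 42.1% for Clock. SVZ sample 1 minus SVZ sample 2 was 0.67 for Npas2 and -0.30 for Clock. These gaps were 0.19 and -0.14 after the running median of coding genes of like GC content was subtracted.

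Arntl, the obligate partner of both, was at 20.4 FPKM in SVZ sample 1, 15.2 in OB and 13.0 in DG and at 21.2 in SVZ sample 2 and 26.4 in STR. The SVZ samples lay close together, above OB and DG and below STR. The differences were 0.40 (SVZ sample 1 minus OB), 0.61 (minus DG), 0.20 (OB minus DG) and -0.31 (SVZ sample 2 minus STR). The gene lies at chromosome 7, 120350979 to 120457640. The shorter of its transcripts (2615 bases, against 2908) was listed at 0 in SVZ sample 1, OB and DG and at 7.68 FPKM in SVZ sample 2 and 8.25 in STR, 36.3% and 31.2% of the gene. That split separated the 2 library sets and not the regions.

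The period genes encode repressors of the loop, and Per1 and Per2 also answer to signals from outside it. Per1 was at 70.1 FPKM in SVZ sample 1, 62.1 in OB and 31.7 in DG, and at 38.0 in SVZ sample 2 and 32.8 in STR. SVZ sample 1 and OB lay close together and DG stood lower. The level in SVZ sample 1 was 0.17 above OB and 1.12 above DG, OB was 0.95 above DG, and SVZ sample 2 was 0.21 above STR. The gene lies at chromosome 11, 68912458 to 68923459.

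Per1 is known to respond to neuronal activity as well as to the clock. Most immediate early genes, which respond to activity and to handling of tissue, were, like Per1, lower in DG than in SVZ sample 1 and OB. Of 10 such genes, 9 were at least 1 unit higher in SVZ sample 1 than in DG (median 1.75) and 9 in OB than in DG (median 1.90). Between SVZ sample 1 and OB, 1 was higher and 1 lower (median 0.19). In SVZ sample 2, 4 were higher than in STR (median 0.95), a pair in which Per1 differed by 0.21. Their summed level was 820 FPKM in SVZ sample 1, 651 in OB and 165 in DG and 628 in SVZ sample 2 and 397 in STR. Glucocorticoid-responsive genes, a list that includes Per1 itself, summed to 341 FPKM in SVZ sample 1, 357 in OB and 240 in DG and 211 and 187 in the other set. By gene they did not move together: 3 of 7 were at least 1 unit higher in SVZ sample 1 than in DG and 1 lower (median 0.88), 1 of 7 was higher in OB than in DG (median 0.03), and SVZ sample 1 minus OB had 2 higher and 2 lower (median -0.51). The OB sum held 100 FPKM of Cdkn1a, which was at 8.89 in DG. The part of either response in the Per1 level was not tested.

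In DG most of the Per1 signal was assigned to the transcript of the second start. This transcript was at 23.0 FPKM in DG, 72.6% of the gene, at 3.67 in SVZ sample 1 (5.23%), at 0.00105 in SVZ sample 2 and 0.000766 in STR, and was listed at 0 in OB. The transcript of the first start, the one with the E-box shown above, was at 66.4 FPKM in SVZ sample 1, 62.1 in OB and 8.67 in DG and at 38.0 in SVZ sample 2 and 32.8 in STR. DG was thus apart from the other 4 libraries in this split. The transcripts are 4660 and 4645 bases long, the table gives no error for the assignment, and DG is also the library with the most values at 0. The sum over both transcripts does not depend on the assignment, while the first-start transcript taken alone was 2.80 above DG in SVZ sample 1 and 2.71 in OB on the log2 scale.

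**Figure D2:**
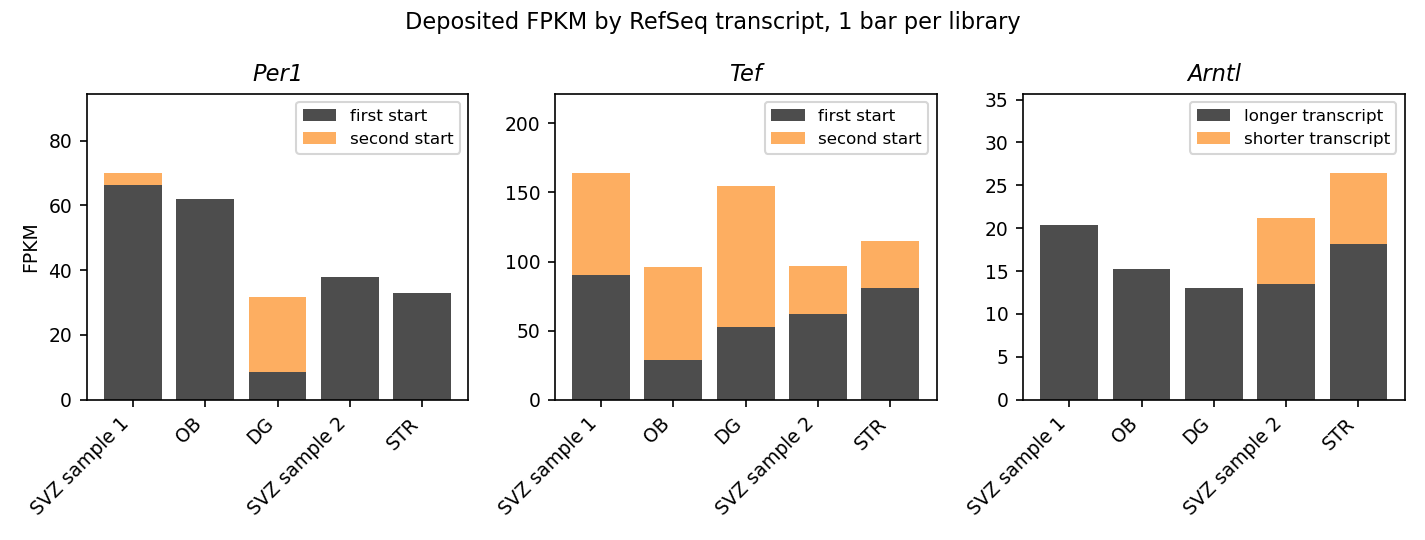
Stacked FPKM of the transcripts of Per1 and Tef by start, and of the longer and shorter Arntl transcript, 1 bar per library. The second start takes 72.6% of Per1 in DG and at most 5.23% elsewhere. It takes 69.8% of Tef in OB and 30% in STR, which lie in different library sets.

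Per2 was at 25.4 FPKM in SVZ sample 1, 13.7 in OB and 15.9 in DG and at 19.7 in SVZ sample 2 and 17.5 in STR. SVZ sample 1 was 0.84 above OB and 0.64 above DG, OB minus DG was -0.19, and SVZ sample 2 was 0.16 above STR. In both sets the SVZ sample was the highest, by little in the set with STR. Per2 lies at chromosome 1, 93312559 to 93355905.

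Per3, which is dispensable for a running clock, had a different order. It was at 19.1 FPKM in SVZ sample 1, 12 in OB and 23.0 in DG and at 9.83 in SVZ sample 2 and 8.30 in STR. It was the only 1 of the 10 genes with its highest level in DG, 0.26 above SVZ sample 1 and 0.88 above OB (OB minus DG -0.88), and 6.24% of coding genes had an OB minus DG difference as low. Per1 was 5.17 times the level of Per3 in OB and 1.37 times in DG, with 3.67 in SVZ sample 1 and 3.86 in SVZ sample 2 and 3.95 in STR. Per3 lies at chromosome 4, 150377764 to 150418731.

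The cryptochromes are the stronger repressors of the activator pair. Cry1 was at 22.2 FPKM in SVZ sample 1, 16.8 in OB and 9.10 in DG and at 15.7 in SVZ sample 2 and 14.4 in STR. On the log2 scale SVZ sample 1 was 0.38 above OB and 1.2 above DG, OB was 0.82 above DG and SVZ sample 2 was 0.12 above STR. Cry1 thus had the order SVZ sample 1, OB, DG, as had Npas2, Per1, Arntl, Dbp and, within a narrow range, Cry2. It lies at chromosome 10, 84594445 to 84647799.

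Cry2 was the most even of the 10 genes among SVZ sample 1, OB and DG, at 70.6, 68.9 and 66.0 FPKM, a 1.07-fold range. It was at 40.7 FPKM in SVZ sample 2 and 48.4 in STR (difference -0.25). The level of Cry2 was 3.18, 4.09 and 7.26 times that of Cry1 in SVZ sample 1, OB and DG and 2.59 and 3.36 times in the other set, so that the ratio was highest in DG through the low Cry1 value. Cry2 lies at chromosome 2, 92243804 to 92274226. A long noncoding RNA of the authors' catalogue, D930015M05Rik, lies in the same interval on the opposite strand at 1.93 to 4.31 FPKM, and the sources used here do not say whether the libraries kept strand.

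Dbp, a direct target of the activator pair and one of the transcripts with the widest daily swing, was at 142 FPKM in SVZ sample 1, 62.3 in OB and 57.0 in DG, and at 56.2 in SVZ sample 2 and 75.2 in STR. SVZ sample 1 stood alone in its set, and the other 4 libraries, taken across the sets, lay within 56.2 to 75.2. Its log2 level in SVZ sample 1 was 1.18 above OB and 1.31 above DG, OB was 0.13 above DG, and SVZ sample 2 minus STR was -0.41. Within its set SVZ sample 1 was the highest, while SVZ sample 2 was below STR and below OB and DG as well. With SVZ sample 2 in place of SVZ sample 1 the differences from OB and DG became -0.14 and -0.02, so the direction turned. Dbp lies in the deposited interval at chromosome 7, 52960617 to 52973372, which it shares with Sphk2, a sphingosine kinase gene on the opposite strand, at 16.2 FPKM in SVZ sample 1, 23.8 in OB and 18.8 in DG and 7.82 in SVZ sample 2 and 7.02 in STR.

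Tef was at 164 FPKM in SVZ sample 1, 96.2 in OB and 155 in DG and at 96.7 in SVZ sample 2 and 115 in STR. OB was the lowest of its set, with SVZ sample 1 0.77 above it and DG 0.68 above it (OB minus DG -0.68), and SVZ sample 1 minus DG was 0.09. SVZ sample 2 minus STR was -0.25. The level of Tef was 1.15 times that of Dbp in SVZ sample 1, 1.54 times in OB and 2.71 times in DG, and 1.72 and 1.53 times in the other set. Tef lies at chromosome 15, 81633103 to 81657293.

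The split between the transcripts of the Tef starts differed among the libraries. The transcript of the first start was at 90.4 FPKM in SVZ sample 1, 29.0 in OB and 52.5 in DG and at 62.1 in SVZ sample 2 and 80.6 in STR. The transcript of the second start, 8741 bases downstream, was at 73.8, 67.2 and 102 FPKM and at 34.5 and 34.4. It made up 44.9% of the gene in SVZ sample 1, 69.8% in OB and 66.1% in DG, and 35.7% and 30% in SVZ sample 2 and STR. The first start gave the larger share in the SVZ samples and STR, the second in OB and DG, a statement that crosses the library sets. The level of the second start was nearly equal in SVZ sample 1 and OB, and that of the first start was not. These shares are deposited estimates with no error.

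Counted over the 10 genes, SVZ sample 1 was at least 1 unit above OB for 2 (Npas2 and Dbp) and below it by that much for 0. Of 13724 coding genes at 1 FPKM or more in either library, 16.9% differed by 1 unit either way and 7.63% were higher in SVZ sample 1. Against DG, SVZ sample 1 was at least 1 unit higher for 4 (Npas2, Per1, Cry1 and Dbp) and lower for 0, where 18.3% of 13495 coding genes differed and 12.6% were higher. Between OB and DG 0 of the 10 differed by 1 unit (19.7% of 13392 coding genes did), with Npas2 and Per1 at 0.95, and between SVZ sample 2 and STR 0 of the 10 did (4.82% of 12961). The share of the 10 genes past 1 unit either way was near that of coding genes against OB, above it against DG, and below it in the other pairs.

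The median differences of the 10 genes were 0.51 for SVZ sample 1 minus OB, 0.63 minus DG, 0.16 for OB minus DG and -0.03 for SVZ sample 2 minus STR, beside medians of -0.08, 0.16, 0.25 and 0.06 over all coding genes. SVZ sample 1 was above both OB and DG for 8 genes, all but Clock and Per3, a pattern that 33.2% of 13906 coding genes had. SVZ sample 2 was above STR for 5, Npas2, Cry1 and the 3 period genes, as were 58% of coding genes. The genes that were highest in the SVZ sample of both sets were Npas2, Per1, Per2 and Cry1, 4 of 10 beside 22.2% of 14029 coding genes. With SVZ sample 2 in place of SVZ sample 1, across the sets, only 3 genes were above both OB and DG, namely Arntl, Npas2 and Per2 (26.4% of coding genes were). The counts past 1 unit either way were then 0 against OB and 2 against DG, with Npas2 higher (1.94) and Per3 lower (-1.15) than in DG. Between SVZ sample 2 and STR all 10 stayed within 0.41 either way.

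**Figure D3:**
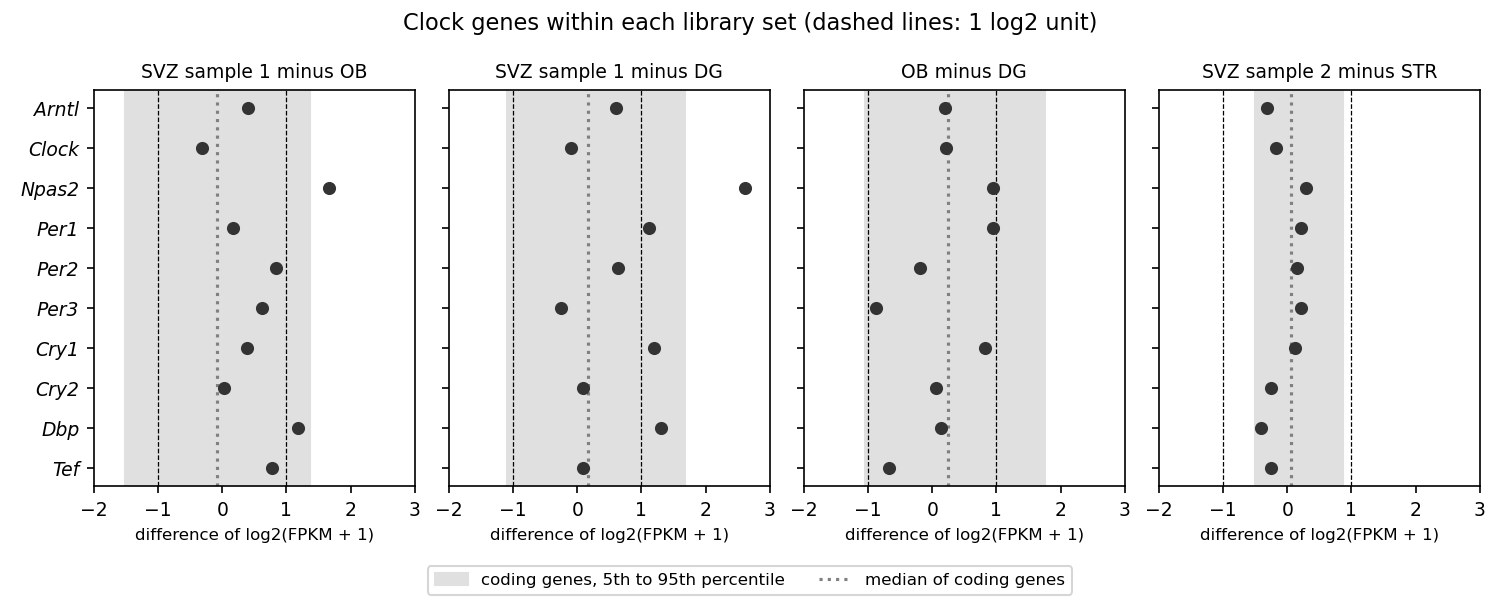
Differences of log2(FPKM + 1) of the 10 genes in the 4 within-set pairs, with the 5th to 95th percentile of coding genes in grey, their median dotted and 1 unit dashed. Npas2 is outside the grey band for SVZ sample 1 minus OB (1.66) and minus DG (2.61), and no gene passes 1 unit in the other pairs.

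The only replicates were the SVZ samples, and they lie in different sets. SVZ sample 1 was above SVZ sample 2 for 8 of the 10 genes, by up to 1.32 for Dbp and with a median of 0.71 over the 10, where 73.5% of coding genes were above and their median was 0.34. Dbp was the only 1 past 1 unit (13.6% of 13272 coding genes were). The gap followed the GC content of the members, as it did for coding genes. Clock, at 42.1% GC the lowest, had -0.30 and Arntl, at 47.9%, -0.05, while Per1 at 59.4% had 0.87 and Dbp at 61.6%, the highest, had 1.32. After the running median of coding genes of like GC content was subtracted, the gap was -0.27 (Per2) to 0.40 (Per3), with 0.25 for Dbp and a median of 0.05. With 1 sample of the SVZ in each set, a change of the clock between the replicates cannot be told apart from the library sets.

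**Figure D4:**
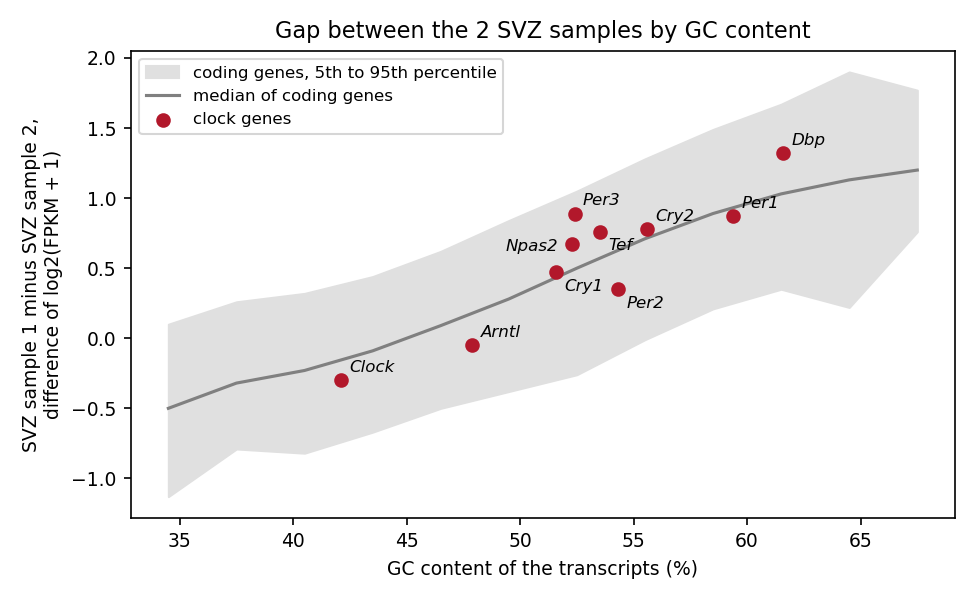
Difference of log2(FPKM + 1) between SVZ sample 1 and SVZ sample 2 against the GC content of the transcripts (%), with the median and the 5th to 95th percentile of coding genes in bins of GC content. The clock genes follow the curve, from Clock (42.1% GC, -0.30) to Dbp (61.6% GC, 1.32).

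The within-set pairs were corrected for GC content in the same way. Npas2 kept 1.84 above OB and 2.48 above DG, Dbp 1.5 and 1.15, and OB minus DG became -1.24 for Per3 and -1.05 for Tef.

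A fit by limma with all 5 libraries in 4 region groups gave the only test, and it called 0 of the 10 genes in each of the 6 pairs of regions after Benjamini-Hochberg adjustment, where it called 0% of 14878 to 15941 genes. Its 1 residual degree of freedom comes from the SVZ samples, so it assumes that OB, DG and STR vary as they do. These contrasts cross the library sets: OB minus STR and DG minus STR cannot be told apart from the difference of the sets, and those with SVZ use the mean of 1 sample from each set. The largest difference was that of Npas2 between SVZ and DG, 2.28 ± 0.50 (SE, n = 2 and 1), with an adjusted p of 0.228 by limma. Npas2 in this pair was also the 1 member test with an unadjusted p under 0.05, a mark that 14.1% of all genes reached. In the other pairs 0 of the 10 did, where the share of all genes was 14% (SVZ and OB), 4.75% (SVZ and STR), 12.6% (OB and DG), 14.1% (OB and STR) and 11.9% (DG and STR). Npas2 gave 1.33 ± 0.50 for SVZ minus OB and 0.62 ± 0.50 for SVZ minus STR, with adjusted p of 0.407 and 0.971 by limma.

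By the same 3 differences, the nearest pairs of the other members were Gnao1 and Lrrc7 for Arntl (0.0702 and 0.0747), Zzef1 and Slc35c1 for Clock (0.0128 and 0.0392), Raly and Galk2 for Per1 (0.0916 and 0.102), Rxra and Il18 for Per2 (0.0441 and 0.101), and Tmed5 and Tcea1 for Per3 (0.0175 and 0.0379). They were 1810035L17Rik and 5033414D02Rik for Cry1 (0.109 and 0.11), AW549877 and Dnlz for Cry2 (0.0451 and 0.046), Atpbd4 and Cacng3 for Dbp (0.221 and 0.247), and Wdr54 and Zfp932 for Tef (0.035 and 0.0679). Npas2 and Dbp had the most distant neighbours of the 10 genes, and Clock and Per3 the closest.

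Around the 10 genes, 29 further clock genes are described (Cipc was not found under that symbol). In SVZ sample 1 minus OB, 2 were at least 1 unit higher (Fbxl21 and Tsc22d3) and 2 lower (Bhlhe40 and Nfil3), with a median of 0.02. Against DG, 2 were higher in SVZ sample 1 (Fbxl21 and Tsc22d3) and 0 lower, with a median of 0.11. OB minus DG had 1 higher (Nfil3) and 0 lower, and SVZ sample 2 minus STR had 2 higher (Nfil3 and Timeless) and 0 lower. Their share beyond 1 unit was at or below that of all coding genes in the first 3 pairs, and in the pair with STR 2 of 29 compare with the 4.82% given above.

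Among the nuclear receptors that close the second loop of the clock, Nr1d1 (REV-ERB alpha, the repressor of Arntl) was at 97.2 FPKM in SVZ sample 1, 95.7 in OB and 89.9 in DG and at 49.2 in SVZ sample 2 and 61.5 in STR, nearly as even over the first set as Cry2. Nr1d2, its paralog, was at 36.3, 27.0 and 24.0 and at 41.0 and 45.6. Of the activating RORs, Rorb was low throughout, at 2.10 to 3.54 FPKM. Rora was highest in OB, at 12.6 FPKM against 6.33 in SVZ sample 1 and 7.97 in DG.

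Nfil3, the repressor that competes with DBP and TEF for D-boxes, was at 26.3 FPKM in OB against 6.85 in SVZ sample 1 and 7.57 in DG, and at 6.47 in SVZ sample 2 and 2.62 in STR. It was highest in OB, the region where Tef was lowest of its set. Hlf, the third PAR bZIP gene, was at 45.2, 31.3 and 49.6 FPKM and at 60.6 and 72.0, with the same order of regions as Per3 in the first set. OB was thus the lowest of its set for Tef and Hlf, while Dbp was near its DG level there. Arntl2, the paralog of Arntl, was low throughout, at 1.08 to 2.21 FPKM. Bhlhe40, a bHLH repressor at E-boxes, was at 23.3 FPKM in SVZ sample 1 and 48.6 and 46.0 in OB and DG.

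Among the kinases, ligases and cofactors of the clock proteins, Nono, an RNA-binding cofactor of the PER proteins, had the highest mean level, at 59.7 to 89.6 FPKM. The casein kinase gene Csnk1d, whose product phosphorylates PER, was at 69.8 FPKM in SVZ sample 1, 75.3 in OB and 73.5 in DG and at 45.1 and 41.6 in the other set. Csnk1e was at 60.9, 84.9 and 45.6 and at 30.3 and 23.0. Fbxl21, a ligase subunit for CRY, was at 3.63, 1.22 and 1.18 FPKM and at 4.69 and 6.59. Timeless, which also acts in DNA replication, was at 2.65 FPKM in SVZ sample 2 and 0.736 in STR, a difference of 1.07, and the sum of 6 neuroblast and cycling cell markers was 151 and 9.27 FPKM in the same libraries. The part of cycling cells in it was not tested. Among the outputs, Tsc22d3, also a glucocorticoid target, was at 124 FPKM in SVZ sample 1 and 44.5 to 59.8 in the other libraries. Wee1, a cell cycle kinase gene under E-box control, was the lowest output, at 7.08 to 12.1 FPKM.

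**Figure D5:**
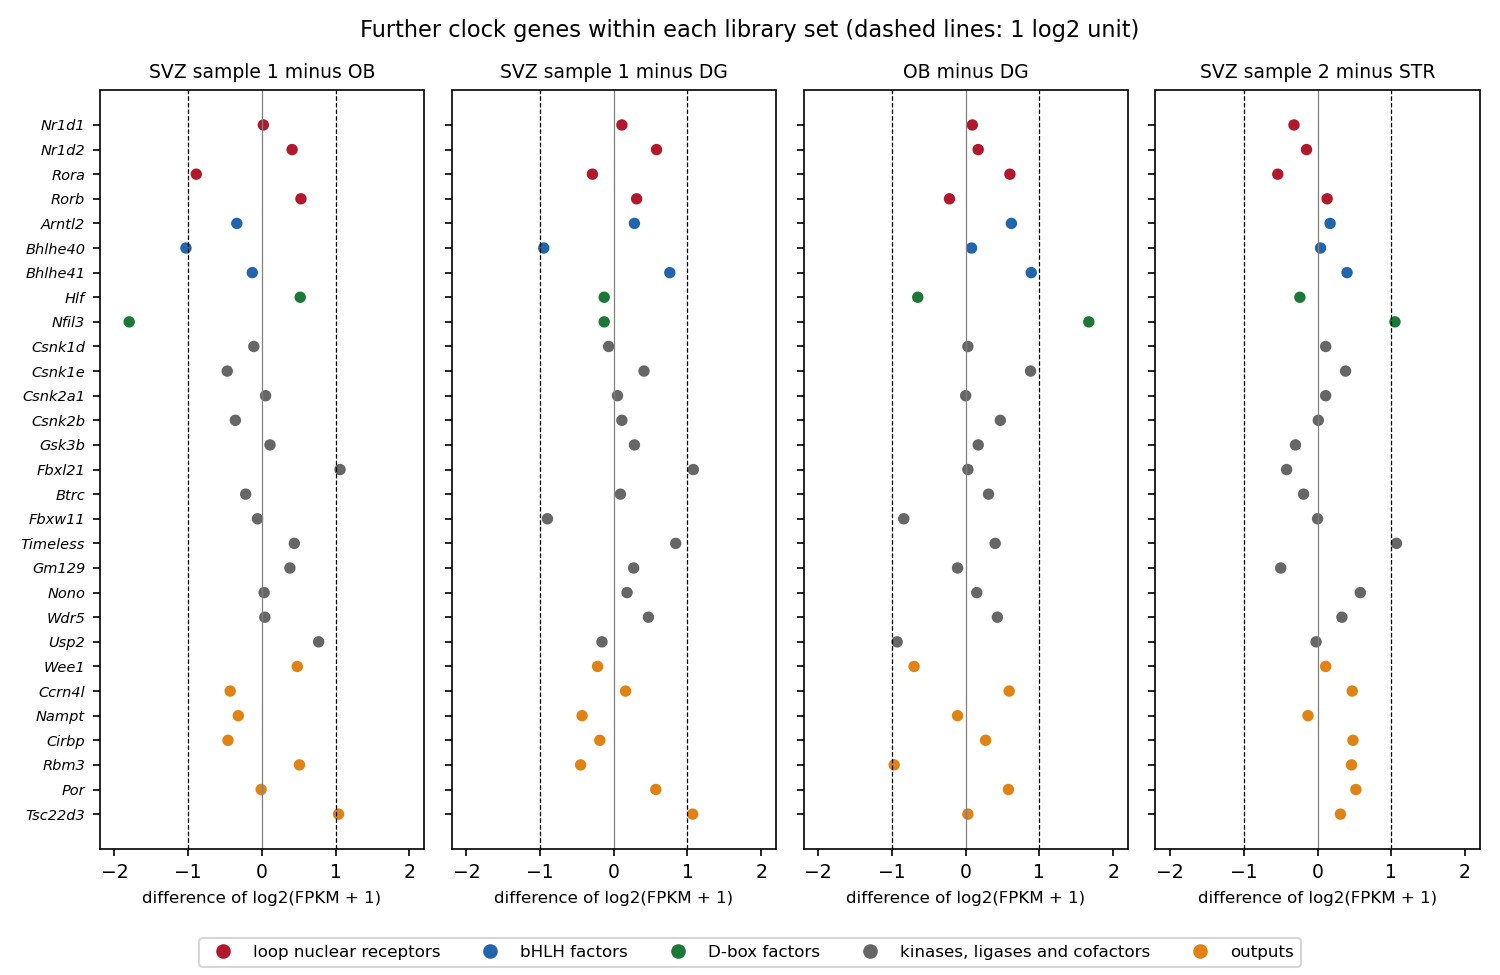
Differences of log2(FPKM + 1) of the 29 further clock genes in the 4 within-set pairs, coloured by list, with 1 unit dashed. Nfil3 (1.67) is the gene beyond 1 unit for OB minus DG, and Nfil3 (1.05) and Timeless (1.07) are those for SVZ sample 2 minus STR.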

How the data were processed

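The authors deposited FPKM values for each transcript in the 5 libraries, per the file headers. The submitters' processing notes list CASAVA, TopHat 1.2.0, Cufflinks 1.0.0 and mm9 without a role or order. Low values times length lay near whole multiples of a best-fitting step in 26.2% to 39.8% of 2000 transcripts per library (tolerance 0.1 step, where a step fixed in advance gives 20%), so no read counts were recovered. Deposited interval starts equal 0-based starts and were raised by 1.

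Values were summed per symbol over rows not typed lincRNA. Differences are of log2(FPKM + 1) among genes with at least 1 FPKM on either side of the pair. GC content came from GENCODE M21 transcripts and was known for 99% of coding genes or more. It was corrected by the running median of 501 genes. The test was limma 3.58.1 (R 4.3.3) with a trended empirical Bayes prior. It was fitted over genes at 1 FPKM or more in any library, lncRNA loci included. It was also run on simulated data with the same noise in all libraries and no library sets. That run cannot show how limma behaves with the sets of these data.

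The members and lists were chosen with earlier results of these data known. The text names all members, the 2 genes most like each, and of the further genes those past 1 unit and the highest and lowest of each list. Nr1d2, Rora, Csnk1d and Csnk1e were added after their values were seen. Some further clock genes of the lists are not reported here, and counts, medians and extremes leave them out. Alternatives changed the pseudocount, filter, summing, scaling, GC correction, SVZ sample and limma's trend. The replicates of the SVZ may differ technically as well as biologically.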

Additional observations from a re-analysis of the deposited data

How the results depend on the processing

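Differences of the 10 genes kept their direction, where past 1 unit, under a pseudocount of 0.1, the highest transcript alone, median ratio scaling, GC correction and the mean of both SVZ samples. With the highest transcript alone Per1 was 2.80 (SVZ sample 1 minus DG) and 2.71 (OB minus DG) and Tef 1.61 (SVZ sample 1 minus OB) and 0.77 (minus DG), and the count against OB was 3. With the other SVZ sample in place, which crosses the library sets, Dbp turned to -0.14 (minus OB) and -0.02 (minus DG). The count of genes past 1 unit became 1 in SVZ minus OB and 1 in SVZ minus DG with the mean of both SVZ samples. Without SVZ replicate 1 these counts, either way, were 0 and 2 (against DG, Npas2 at 1.94 and Per3 at -1.15), with medians of -0.06 and 0.23. Without SVZ replicate 2 the count against STR was 2 (Per1 at 1.07 and Per3 at 1.11) and the median 0.56. For SVZ sample 1 minus DG the count was 3 with median ratio scaling (median 0.48) and 3 with GC correction (median 0.42). GC correction gave a count of 3 for SVZ sample 1 minus OB. For OB minus DG the count was 1 with pseudocount 0.1, 1 with the highest transcript alone and 1 with median ratio scaling. It was 2 with GC correction, whose median was -0.18. Over all genes limma called 891 (SVZ and OB), 91 (SVZ and STR), 941 (OB and DG), 1045 (OB and STR) and 206 (DG and STR) with no filter on low values, and 14 (SVZ and DG) and 494 (OB and DG) with 1 fit for each pair, an alternative chosen after seeing the data. The cause was not tested. Without a trend, or with pseudocount 0.1, limma called 0 genes in each pair. None of the 10 genes was called: their smallest adjusted p by limma over the 5 settings was 0.175. No paired analysis was possible because the regions share fewer than 2 replicate numbers. Leaving out an SVZ sample leaves limma no residual degree of freedom, so only values are given.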
